A study of Oryza sativa with 4 samples.

Results

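The subject of this report is 1 stretch of open chromatin on rice chromosome 8, from 18360068 to 18374234 (14167 bp), with the 2 genes beside it, LOC_Os08g30770 and LOC_Os08g30780. Its members are the peaks that overlap this stretch in each library's own peak list. They numbered 2 of 65218 peaks in HS replicate 1, 2 of 65284 in HS replicate 2, 3 of 66559 in Normal replicate 1 and 1 of 66704 in Normal replicate 2. Merged over the 4 libraries, these peaks formed 1 region of the 55496 regions called in all of them. The locus was chosen because the study's marker table lists LOC_Os08g30770 under both root hair and root cap, and LOC_Os08g30780 under root cap, from the same nuclei. Greater opening in those nuclei is therefore a description here and was not tested.

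Chromatin accessibility was measured in single nuclei by scATAC-seq, in which the Tn5 transposase cuts DNA where chromatin is open. The nuclei came from pooled 5 mm root tips of 3-day-old seedlings of the japonica cultivar Nipponbare. The 2 HS libraries came from heat-stressed seedlings, which the study states were exposed to 45 °C for 3 h. The 2 Normal libraries came from seedlings without heat stress. All groups shared cultivar, age, tissue and growth at 28 °C. The study states that samples were processed in different batches without naming them, so a batch that follows the condition cannot be told apart from heat.

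Root hairs are long outgrowths of single epidermal cells that take up water and ions. The root cap covers the growing tip, protects the meristem, senses gravity and sheds its outer cells into the soil. Both lie at the outer surface of the root. Open chromatin around a gene marks DNA that regulatory proteins can reach and does not by itself measure transcription. No function was assigned to LOC_Os08g30770 or LOC_Os08g30780 in the sources used here.

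Libraries held between 350206085 and 364736225 cut sites, and the median nucleus held between 23709 and 28143, more in HS than in Normal. Nuclei were grouped by loci on other chromosomes. Each nucleus was scored by its cut sites in the regions of 100 root hair genes and of 100 root cap genes, and a nucleus over 3 scaled median absolute deviations (MAD) above its library's median on 1 list only was called root hair-like or root cap-like. This gave 1523 and 1558 root hair-like nuclei in HS, against 1859 and 1826 in Normal. Root cap-like nuclei numbered 589 and 562 in HS, against 673 and 676 in Normal, and all others 8441 and 8416 in HS, against 9936 and 9854 in Normal. Between 166 and 248 nuclei per library passed both limits and were set aside. Nuclei within 1 MAD of a limit were common: 870 to 1012 per library for root hair and 546 to 714 for root cap, so both groups are ranges of a score and not sharp types. Pairs of libraries had between 163 and 254 nucleus barcodes in common.

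Genes held out of the lists were used to check these names. LOC_Os10g42750, a cellulose synthase-like gene needed for root hair growth in rice, had 0.472 ± 0.060 and 0.438 ± 0.003 cut sites per 10000 in root hair-like nuclei of HS and Normal (SD, n = 2 each), against 0.115 ± 0.015 and 0.132 ± 0.004 in other nuclei. LOC_Os04g53640, a root cap gene of the study, had 0.966 ± 0.009 in HS and 0.812 ± 0.009 in Normal in root cap-like nuclei, against 0.097 ± 0.001 and 0.105 ± 0.002 in other nuclei. LOC_Os01g73700, its other root cap marker, separated less. It had 0.298 ± 0.002 in HS and 0.241 ± 0.010 in Normal in root cap-like nuclei, against 0.182 ± 0.002 and 0.175 ± 0.006 in other nuclei. In root hair-like nuclei it had 0.206 ± 0.001 in HS and 0.197 ± 0.016 in Normal, so it set the 2 named groups apart only weakly. LOC_Os04g53640 had 0.170 ± 0.008 in HS and 0.181 ± 0.013 in Normal in root hair-like nuclei. LOC_Os10g42750 had 0.135 ± 0.030 in HS and 0.112 ± 0.019 in Normal in root cap-like nuclei. Both root cap genes were highest in the nuclei set aside, where LOC_Os04g53640 reached 1.91 ± 0.023 in HS and 1.66 ± 0.120 in Normal. The set-aside nuclei thus include nuclei with strong root cap opening, and 141 to 153 of them per library lay further past the root cap limit than past the root hair limit.

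LOC_Os08g30770 lies on the plus strand from 18366522 to 18371886 (5365 bp). The region began 6454 bp upstream of its start, covered the whole gene and ran 2348 bp past its end. LOC_Os08g30780 lies on the same strand from 18374336 to 18381048 (6713 bp), so the region stopped 102 bp before its start and holds its upstream side only. The genes are 2449 bp apart. The region was longer than 98.9% of the regions called in all libraries, whose median was 1582 bp.

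The libraries divided the region differently. HS replicate 1 had a peak from 18360068 to 18368888 (8821 bp) and a second from 18369562 to 18374230 (4669 bp). HS replicate 2 had nearly the same pair, from 18360080 to 18368989 (8910 bp) and from 18369586 to 18374234 (4649 bp). Both HS libraries thus broke inside LOC_Os08g30770, with gaps of 673 and 596 bp that began 2367 and 2468 bp into the gene. In HS the first peak joined the upstream DNA of LOC_Os08g30770 with the 5′ part of its body, and the second joined the 3′ part of the body with the DNA between the genes.

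Normal replicate 1 had 3 peaks, from 18360099 to 18361542 (1444 bp), from 18362046 to 18366767 (4722 bp) and from 18367309 to 18374157 (6849 bp). Its gaps began at -4979 bp from the start of LOC_Os08g30770 (503 bp long) and 246 bp into the gene (541 bp long). Normal replicate 2 had 1 unbroken peak from 18360099 to 18374145 (14047 bp). The outer borders therefore nearly coincided in the 4 libraries, while the inner borders recurred between the HS libraries and did not recur between the Normal libraries. The total called length was 13490 and 13559 bp in HS, against 13015 and 14047 bp in Normal. Each of the 8 peaks overlapped the peaks of all 3 other libraries by 1 bp or more, but only 2, the first peak of each HS library, did so over 50% of both peaks.

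**Figure D1:**
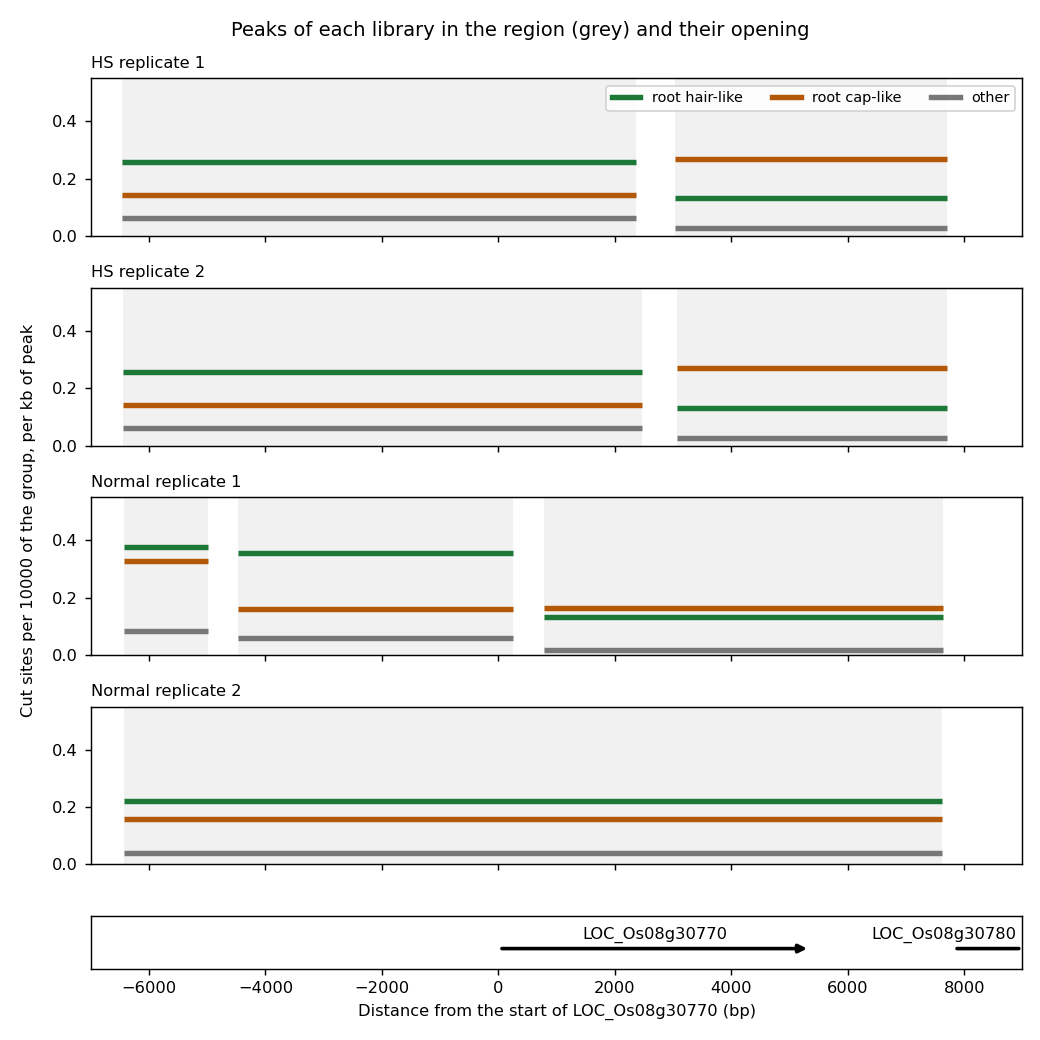
Peaks of each library (grey) by distance from the start of LOC_Os08g30770 in bp, with lines for cut sites per 10000 per kb of peak in root hair-like, root cap-like and other nuclei; arrows show the genes, LOC_Os08g30780 running past the right edge. In HS replicates 1 and 2 root hair-like nuclei lie above root cap-like nuclei in the first peak and below them in the last.

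Opening of the whole region was highest in root hair-like nuclei among the 3 groups. It is given as level, the cut sites in the region per 10000 cut sites of the group in regions called in all libraries. Root hair-like nuclei had levels of 2.89 and 2.88 in HS, against 3.12 and 3.12 in Normal. Root cap-like nuclei had levels of 2.53 and 2.53 in HS, against 2.36 and 2.25 in Normal. Other nuclei had levels of 0.684 and 0.668 in HS, against 0.527 and 0.562 in Normal. In each library the order was root hair-like, root cap-like, other, and no library of 1 group overlapped a library of another. Root hair-like nuclei stood 4.27 ± 0.058-fold above other nuclei in HS and 5.74 ± 0.254-fold in Normal, and root cap-like nuclei 3.74 ± 0.059-fold in HS and 4.23 ± 0.335-fold in Normal (SD, n = 2 each). Root hair-like nuclei were 1.14 ± 0.002-fold above root cap-like nuclei in HS and 1.36 ± 0.047-fold in Normal.

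**Figure D2:**
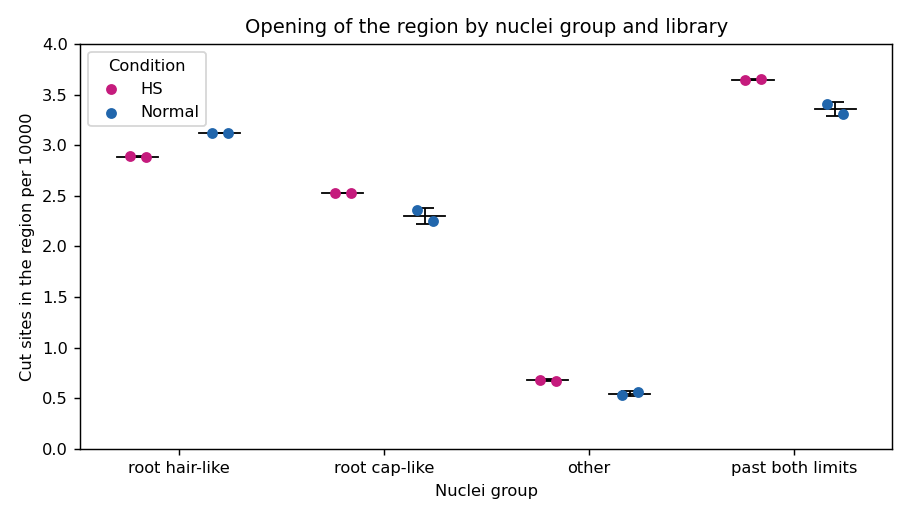
Cut sites in the region per 10000 in each group of nuclei; points are libraries, horizontal lines means and bars 1 SD (n = 2). Root hair-like and root cap-like nuclei lie at 2.25 to 3.12, other nuclei at 0.527 to 0.684, and nuclei past both limits at 3.31 to 3.65.

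Such opening in both groups was uncommon among regions. The locus was chosen for its listing under both types from these same nuclei, so a high rank follows from the choice and is a description. Of 53696 regions with at least 1000 cut sites in the 4 libraries, 324 had a higher ratio of root hair-like to other nuclei in HS and 108 in Normal. For root cap-like over other nuclei, 347 were higher in HS and 178 in Normal. Only 47 regions in HS and 19 in Normal reached the region's value on both ratios. In other nuclei, too, the region lay above 94.1% of regions in HS and 92.1% in Normal; levels are not divided by length, and long regions collect more cut sites. Root hair-like nuclei made up 14.2% to 14.6% of nuclei and gave 36.2% and 36.7% of the region's cut sites in HS, against 41.3% and 40.0% in Normal. Root cap-like nuclei, 5.24% to 5.49% of nuclei, gave 11.2% and 10.6% in HS, against 12.1% and 11.4% in Normal.

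The opening was spread over most nuclei of both groups. A cut site in the region was found in 91.3% (95% exact interval 89.7 to 92.6) and 94.0% (92.7 to 95.1) of root hair-like nuclei in HS, against 89.6% (88.1 to 90.9) and 89.8% (88.3 to 91.2) in Normal. Among root cap-like nuclei the shares were 86.4% (83.4 to 89.1) and 86.8% (83.8 to 89.5) in HS, against 89.2% (86.6 to 91.4) and 86.4% (83.6 to 88.9) in Normal. Other nuclei gave 50.6% and 51.2% in HS, against 39.6% and 40.9% in Normal. These exact Clopper-Pearson intervals cover counting error only.

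Nuclei differed in depth, so each was also thinned to 10000 cut sites, leaving out between 31 and 1267 shallower nuclei per group and library. The expected shares were then 87.4% ± 0.919 in HS and 86.6% ± 0.054 in Normal for root hair-like nuclei, and 81.1% ± 1.32 in HS and 80.2% ± 1.51 in Normal for root cap-like nuclei (SD, n = 2 each). For other nuclei they were 36.3% ± 0.204 in HS and 29.5% ± 0.653 in Normal. Cut sites were thinned singly, although a fragment mostly adds them in pairs, so these expected shares are too high. At 1 depth the conditions differed by under 1 percentage point in root hair-like and root cap-like nuclei and by several points in other nuclei. Barcodes not counted as nuclei had levels of 1.10 and 1.18 in HS, against 1.04 and 1.07 in Normal, close to those of all nuclei together (1.12 and 1.11 in HS, 1.03 and 1.05 in Normal). Free DNA of this kind can add cut sites to every group, and its part in the levels of other nuclei was not tested.

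The region's parts were used differently by the 2 groups. In the last peak, which runs from the body of LOC_Os08g30770 to just before LOC_Os08g30780, lay 49.8% (95% exact interval 48.3 to 51.4) of the region's cut sites of root cap-like nuclei in HS replicate 1 and 49.6% (48.1 to 51.2) in HS replicate 2. In root hair-like nuclei it held 21.3% (20.6 to 22.0) and 21.0% (20.3 to 21.7), and in other nuclei 19.3% (18.7 to 19.9) and 18.2% (17.7 to 18.8). In Normal replicate 1, whose last peak is longer, the shares were 47.8% (46.3 to 49.3) for root cap-like, 28.8% (28.0 to 29.5) for root hair-like and 23.5% (22.8 to 24.2) for other nuclei. Normal replicate 2 had 1 peak and gives no such share. A fragment mostly adds its cut sites in pairs, since only 3.72% to 3.92% of the counts above 0 were odd, so these intervals are too narrow.

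**Figure D3:**
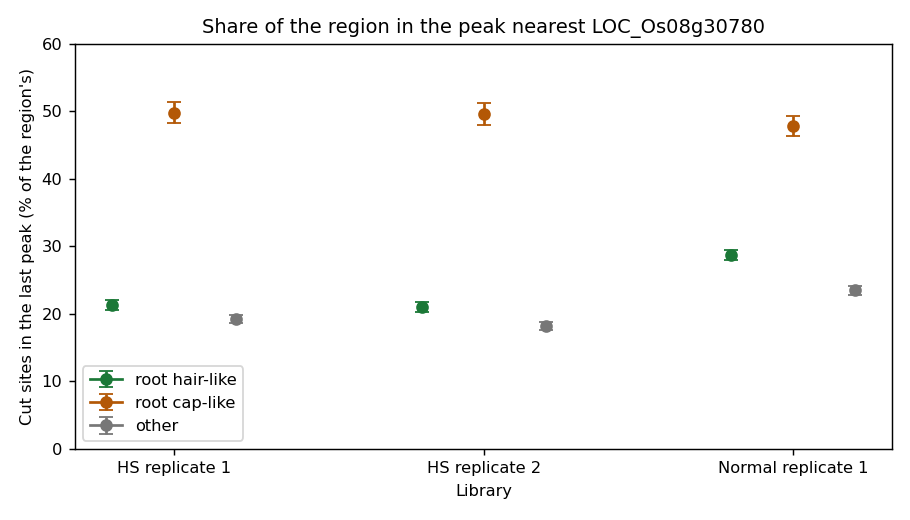
Share of the region's cut sites that fell in the peak nearest LOC_Os08g30780, in % by library and group of nuclei, with 95% exact intervals. Root cap-like nuclei lie at 47.8% to 49.8% in the 3 libraries with more than 1 peak, root hair-like nuclei at 21.0% to 28.8% and other nuclei at 18.2% to 23.5%.

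Peak by peak, the order of the groups turned round. In the first HS peak, root hair-like nuclei had levels of 2.28 and 2.28 and root cap-like nuclei 1.27 and 1.27, a ratio of root cap-like to root hair-like of 0.557 and 0.559. In the second HS peak, root cap-like nuclei had 1.26 and 1.25 and root hair-like nuclei 0.616 and 0.605, a ratio of 2.04 and 2.07. Over other nuclei, root cap-like nuclei stood 2.30- and 2.33-fold higher in the first peak and 9.56- and 10.3-fold higher in the second. Root hair-like nuclei stood 4.12- and 4.17-fold higher in the first and 4.68- and 4.97-fold higher in the second. The peak upstream of LOC_Os08g30780 was thus the part most open in root cap-like nuclei relative to the rest, while root hair-like nuclei exceeded other nuclei by similar factors in both HS peaks.

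Normal replicate 1 gave the same order with other borders. Its first peak, far upstream of LOC_Os08g30770, had 0.474 in root cap-like and 0.546 in root hair-like nuclei, a ratio of 0.869. Its second peak, which holds the 4476 bp before the gene and its first 246 bp, had 0.756 in root cap-like and 1.68 in root hair-like nuclei, a ratio of 0.451. Its last peak had 1.13 in root cap-like and 0.898 in root hair-like nuclei, a ratio of 1.26. Over other nuclei, root hair-like nuclei stood 4.46-, 5.97- and 7.25-fold higher in its 3 peaks, and root cap-like nuclei 3.88-, 2.69- and 9.10-fold higher. In this library the DNA just before LOC_Os08g30770 was therefore the part where root hair-like nuclei most exceeded root cap-like nuclei. The DNA toward LOC_Os08g30780 was the part where root cap-like nuclei exceeded root hair-like nuclei. Over other nuclei, both groups stood highest in the last peak.

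The division was also counted per nucleus, without thinning to 1 depth, so these shares partly restate the levels above. Root cap-like nuclei with a cut site in the last peak and none in the rest made up 16.5% and 15.7% in HS, against 16.6% in Normal replicate 1. Among root hair-like nuclei the shares were 3.48% and 2.44% in HS and 5.92% in Normal replicate 1. The last peak is 4669 and 4649 bp long in HS but 6849 bp in Normal replicate 1, so these shares do not compare the conditions. Nuclei with cut sites in both parts made up 55.3% and 56.4% of root cap-like nuclei in HS and 55.6% in Normal replicate 1, against 48.7%, 49.7% and 50.6% of root hair-like nuclei. Many nuclei of each group were thus open in both parts, so the region's opening in the 2 groups did not fall into separate parts.

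Opening increased along both scores, below the limits as well as above them. Along the root hair score, the level in the lowest bin (more than 1 MAD below the median) was 0.325 ± 0.042 in HS and 0.257 ± 0.063 in Normal. In the bin from 2 to 3 MAD, just below the limit, it was 1.83 ± 0.004 in HS and 1.85 ± 0.025 in Normal, and in the bin from 3 to 4, just above it, 2.47 ± 0.069 in HS and 2.30 ± 0.048 in Normal. Over 6 MAD it was 3.78 ± 0.061 in HS and 4.01 ± 0.100 in Normal (SD, n = 2 each). The HS mean was above the Normal mean in all bins up to 2 MAD and from 3 to 4 MAD, with both HS libraries above both Normal libraries except in the lowest bin, and below it over 4 MAD. Nuclei counted as other therefore include nuclei of intermediate root hair score in which the region was open. The bin over 6 MAD held 297 and 308 of the 1523 and 1558 root hair-like nuclei in HS. In Normal it held 478 and 485 of 1859 and 1826. The mix of scores within root hair-like nuclei thus differed between the conditions, and its part in the heat comparison was not tested. Bins follow each library's own median and MAD, so the same bin covers different scores in HS and Normal.

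Along the root cap score the level was 0.467 ± 0.020 in HS and 0.383 ± 0.009 in Normal in the lowest bin. From 2 to 3 MAD it was 1.04 ± 0.053 in HS and 1.11 ± 0.068 in Normal, and from 3 to 4 MAD, within the root cap-like range, 1.62 ± 0.053 in HS and 1.91 ± 0.089 in Normal. From 4 to 6 MAD it was 2.47 ± 0.047 in HS and 2.24 ± 0.064 in Normal, and over 6 MAD 3.01 ± 0.086 in HS and 2.56 ± 0.111 in Normal. HS was thus below Normal just past the limit and above it further up. The bin from 4 to 6 MAD held 143 and 118 nuclei in HS, against 280 and 241 in Normal, so the mix of scores within root cap-like nuclei differed between the conditions. The share of the last peak also increased along this score: below -1 MAD it was 14.1% and 13.9% in HS and 21.5% in Normal replicate 1, and over 6 MAD 50.6% and 53.3% in HS and 48.6% in Normal replicate 1. Between 1 and 2 MAD, well under the limit, it was already 27.9% and 28.6% in HS and 29.0% in Normal replicate 1. The last peak of Normal replicate 1 is longer than those of HS, so these shares do not compare the conditions.

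**Figure D4:**
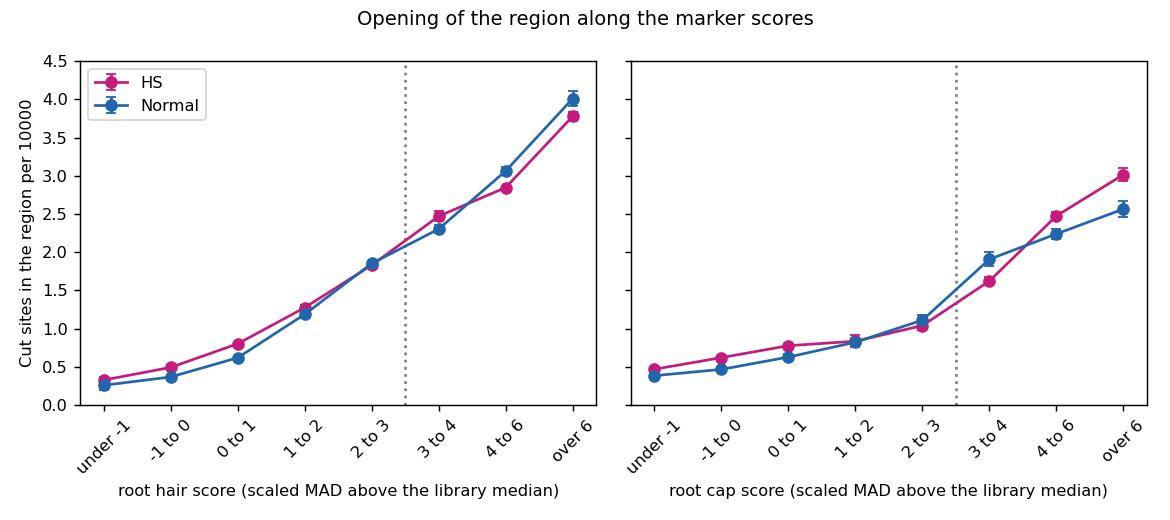
Cut sites in the region per 10000 in nuclei binned by root hair score (left) and root cap score (right), in scaled MAD above the library median; points are means of 2 libraries, bars 1 SD, the dotted line the limit of 3. Levels climb across the whole range, to 3.78 in HS and 4.01 in Normal on the root hair score and to 3.01 in HS and 2.56 in Normal on the root cap score.

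Whether heat changed the opening was asked in each group by comparing the HS with the Normal libraries. Changes were small and their direction depended on the group. In root hair-like nuclei the region had 13267 and 13653 cut sites in HS, against 14457 and 14180 in Normal, and both HS levels were below both Normal levels. The log2 ratio was -0.086 (SE 0.020, adjusted p = 0.00136, edgeR quasi-likelihood test). In root cap-like nuclei it had 4089 and 3923 cut sites in HS, against 4223 and 4029 in Normal, and both HS levels were above both Normal levels, with a log2 ratio of 0.15 (SE 0.038, adjusted p = 0.00152). In other nuclei it had 17929 and 17787 in HS, against 14240 and 15143 in Normal, and the log2 ratio was 0.32 (SE 0.029, adjusted p = 0.000121). Over all nuclei, those past both limits included, it was 0.11 (SE 0.017, adjusted p = 0.00301), which with sums thinned to 1 depth was 0.070 (adjusted p = 0.141).

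None of these was called, since a call required 2 limits, an adjusted p no higher than 0.01 and a ratio of 2-fold or more. Among all regions tested, 6.90% were called in root hair-like, 5.29% in root cap-like, 4.92% in other and 4.56% in all nuclei. Among the regions whose called length, like that of this one, differed by under 10% between libraries, a refit called 0.944%, 1.24%, 0.113% and 0.0903% in the same order of groups. By the adjusted p alone the region passed in each group, as did 35.2% of regions in root hair-like, 19.5% in root cap-like, 48.1% in other and 47.1% in all nuclei. Its log2 ratio was above that of 41.8% of regions in root hair-like, 65.2% in root cap-like and 82.1% in other nuclei. The adjusted p in root cap-like nuclei went above 0.01 without HS replicate 1 (0.066), HS replicate 2 (0.070) or Normal replicate 2 (0.059), and in root hair-like nuclei with a limit of 2 MAD (log2 ratio -0.048, adjusted p = 0.049). Counting all 18 alternatives run per group, the limit of 0.01 was passed in 15 for root hair-like, 14 for root cap-like and 18 for other nuclei. Per kb of called length the order of HS and Normal was the same in each group: 0.214 ± 0.001 against 0.231 ± 0.012 in root hair-like, 0.187 ± 0.001 against 0.171 ± 0.015 in root cap-like and 0.050 ± 0.001 against 0.040 ± 0.0004 in other nuclei.

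The heat effect differed between groups of nuclei. It was lower in root hair-like than in other nuclei by a log2 difference of -0.40 (SE 0.038, adjusted p = 2.07e-11, edgeR quasi-likelihood test of the interaction), which 12.4% of regions passed on the adjusted p and 0.910% with a 2-fold difference as well. It was lower in root hair-like than in root cap-like nuclei by -0.23 (SE 0.042, adjusted p = 4.43e-05), which 12.1% of regions passed on the adjusted p and 2.17% with the 2-fold limit. The difference of root cap-like minus other nuclei was -0.17 (SE 0.042, adjusted p = 0.00351), which 8.56% of regions passed on the adjusted p and 0.863% with the 2-fold limit. This last value did not hold: it was -0.064 (adjusted p = 0.474) without Normal replicate 1, -0.15 (adjusted p = 0.041) without HS replicate 1, and 0.058 (adjusted p = 0.466) with a limit of 5 MAD. The first 2 kept an adjusted p under 0.01 in all alternatives run. No alternative used the same limit for all libraries, so the part of the higher root hair limit in HS was not tested.

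The body of LOC_Os08g30780 held little opening. Of the 3 regions called in all libraries that overlap it, the first (18375002 to 18375377) had 12 and 24 cut sites in root hair-like nuclei of HS, against 45 and 48 in Normal. In root cap-like nuclei it had 27 and 43 in HS, against 20 and 44 in Normal, so the conditions overlapped. Its log2 ratio was -1.36 (SE 0.489, adjusted p = 0.028) in root hair-like, 0.33 (SE 0.400, adjusted p = 0.586) in root cap-like and -1.56 (SE 0.393, adjusted p = 0.012) in other nuclei by edgeR, none past the limit. In root hair-like nuclei it passed without HS replicate 2 (-1.92, adjusted p = 0.00955) and when refitted with the regions of equal called length (-1.37, adjusted p = 0.00165). In other nuclei it passed with DESeq2 (-1.56, adjusted p = 0.00127) and in the same refit (-1.56, adjusted p = 3.32e-09). Its called length was 141 and 219 bp in HS, against 365 and 376 bp in Normal. The region thus failed the under-10% rule of that refit and was added to it. Its adjusted p there rests on the spread of regions unlike it, so the refit does not decide whether it passed. Cut sites are counted only inside a library's own peaks, so the shorter peaks lower the HS sums. The part of this in the ratios was not tested.

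The second region in the gene (18378528 to 18379047, more than 4 kb past its start) rose in root cap-like nuclei of HS. It had 90 and 82 cut sites there in HS, against 21 and 23 in Normal, which is a level of 0.054 ± 0.002 against 0.012 ± 0.001 (SD, n = 2 each). The log2 ratio was 2.15 (SE 0.308, adjusted p = 1.96e-07, edgeR), and the region was called. In root hair-like nuclei it had 31 and 39 cut sites in HS, against 40 and 41 in Normal, with a log2 ratio of -0.21 (SE 0.418, adjusted p = 0.710). In other nuclei it had 283 and 251 in HS, against 246 and 239 in Normal, with a log2 ratio of 0.18 (SE 0.235, adjusted p = 0.541). The heat effect in root cap-like nuclei exceeded that in other nuclei by a log2 difference of 1.98 (SE 0.355, adjusted p = 4.38e-05), and the difference of root hair-like minus root cap-like nuclei was -2.36 (SE 0.423, adjusted p = 3.28e-05). With all sums thinned to 1 depth, the difference from other nuclei was 1.18 (adjusted p = 0.210). The called length was 510 and 484 bp in HS, against 392 and 397 bp in Normal, and this region is far weaker than the one upstream of the gene. Cut sites are counted only inside a library's own peaks, so the longer peaks add to the HS sums. The part of this in the ratios was not tested.

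The third region (18379577 to 18381864) covers the 3′ end of LOC_Os08g30780 and DNA past it. Its levels in other nuclei were 0.094 ± 0.003 in HS and 0.048 ± 0.005 in Normal, a log2 ratio of 0.97 (SE 0.069, adjusted p = 3.62e-05). In root hair-like nuclei the log2 ratio was 0.46 (SE 0.121, adjusted p = 0.00433), lost without HS replicate 2 (adjusted p = 0.044) or Normal replicate 2 (adjusted p = 0.049), and in root cap-like nuclei 0.46 (SE 0.181, adjusted p = 0.049). Its called length was 2092 and 2288 bp in HS, against 1091 and 1131 bp in Normal. Cut sites are counted only inside a library's own peaks, so longer peaks add to the HS sums, and the part of this in the ratio was not tested.

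Few neighbours of the region were open in the same way. Of the 15 other regions within 50 kb, only the one from 18355299 to 18359337, which ends 730 bp before the region, was at least 2-fold above other nuclei in both conditions for root hair-like nuclei (6.54-fold in HS, 7.25-fold in Normal). It was also 5.86-fold above other nuclei in root cap-like nuclei of HS and 4.95-fold in Normal. The first region in the body of LOC_Os08g30780 was 8.51-fold above other nuclei in root cap-like nuclei of HS and 2.32-fold in Normal, on the few cut sites given above. Beyond 10 kb the highest ratio was 2.07, in root hair-like nuclei of Normal at the region from 18329118 to 18340590, where it was 1.26 in HS.

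**Figure D5:**
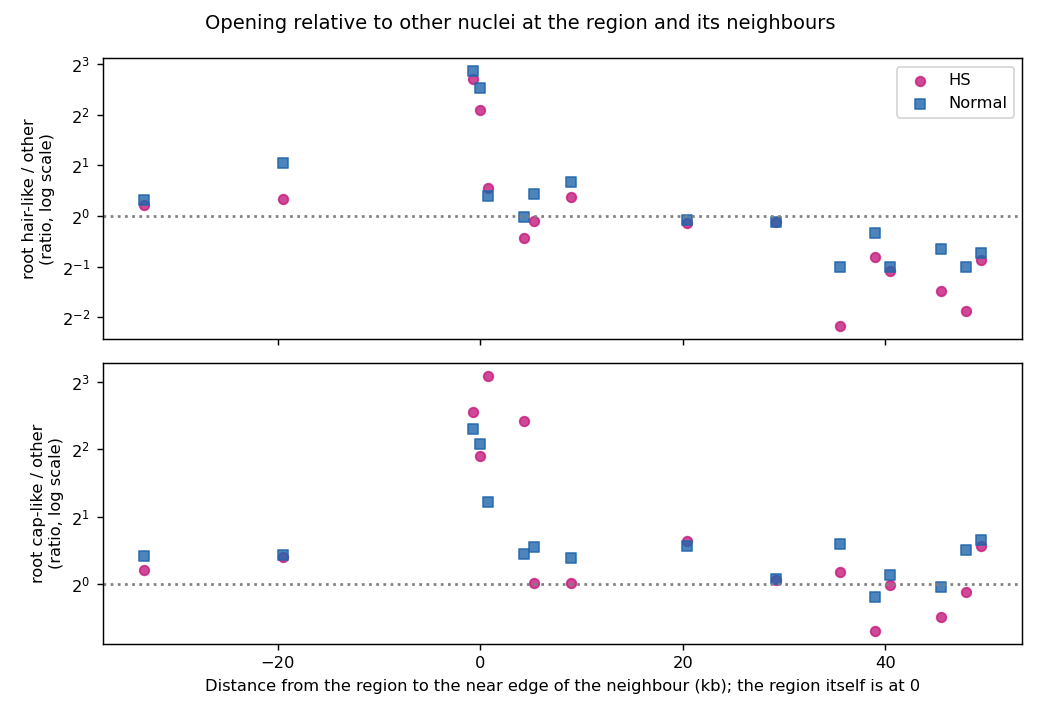
Ratio of root hair-like (top) and root cap-like (bottom) to other nuclei, on a log axis, at the region (0 kb) and the 15 other regions within 50 kb, by distance in kb, for HS and Normal. On the root hair-like axis the region and the neighbour 730 bp before it stand apart, at 4.27 to 7.25.

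This upstream neighbour fell in root hair-like and other nuclei of HS. It had levels of 0.763 and 0.745 in root hair-like nuclei of HS, against 1.17 and 1.12 in Normal, a log2 ratio of -0.58 (SE 0.034, adjusted p = 7.85e-11, edgeR). In other nuclei it had 0.118 and 0.113 in HS, against 0.158 and 0.158 in Normal, a log2 ratio of -0.45 (SE 0.037, adjusted p = 6.63e-05). In root cap-like nuclei it had 0.646 and 0.705 in HS, against 0.817 and 0.747 in Normal, with a log2 ratio of -0.19 (SE 0.063, adjusted p = 0.016) that missed the limit. This value passed in 7 of its 18 alternatives, with Normal replicate 2 left out among them (-0.26, adjusted p = 0.00493), and changed sign with a limit of 5 MAD (0.068, adjusted p = 0.458). In other nuclei the neighbour and the region thus had heat effects of opposite sign. The neighbour's called length was 3709 and 3718 bp in HS, against 4028 and 4039 bp in Normal. Its shorter peaks lower the HS sums, and the part of this in its ratios was not tested. Over the 15 neighbours, 2 were higher and 4 lower by the adjusted p in root hair-like nuclei, 1 and 0 in root cap-like nuclei and 5 and 1 in other nuclei. These are 40.0%, 6.67% and 40.0% of the neighbours, where 35.2%, 19.5% and 48.1% of all regions passed. With the 2-fold limit as well, 1 was called in root hair-like (lower), 1 in root cap-like (the second region in LOC_Os08g30780, higher) and 0 in other nuclei, where 6.90%, 5.29% and 4.92% of all regions were.

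Other genes that the study lists under both types were set beside the region. The part of the table held here has 125 such genes, of which 12 lie on chromosome 8 and 109 of the others had a region called in all libraries. Root hair-like and root cap-like nuclei were both above other nuclei in all 4 libraries for 107 of these 109. Their median ratio of root hair-like to other nuclei was 2.78 in HS and 2.95 in Normal, and 22 genes in HS and 13 in Normal exceeded the region's ratio. Their median ratio of root cap-like to other nuclei was 2.93 in HS and 3.00 in Normal, and 30 genes in HS and 19 in Normal exceeded the region's. The region was therefore on the high side of this list on both ratios, without being at its top. As these genes were listed from the same nuclei, this is a description.

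The 5 genes most like the region were LOC_Os07g15330, LOC_Os06g48010, LOC_Os12g24310, LOC_Os01g71070 and LOC_Os07g15320, with Pearson correlations of log2 level between 0.996 and 0.994 over 12 points (3 groups in 4 libraries). The points share libraries and depth, and the median over the 109 genes was 0.940, so a high value is common in this list. LOC_Os07g15320 and LOC_Os07g15330 share 1 region and are not independent. LOC_Os07g15330 had levels of 0.850 ± 0.006 in HS and 0.983 ± 0.022 in Normal in root hair-like nuclei, 0.914 ± 0.021 in HS and 0.659 ± 0.024 in Normal in root cap-like nuclei, and 0.100 ± 0.005 in HS and 0.081 ± 0.001 in Normal in other nuclei (SD, n = 2 each). Its HS levels were below Normal in root hair-like nuclei and above Normal in root cap-like and other nuclei, the directions of the chromosome 8 region, and so were those of LOC_Os07g15320. The correlation used the HS and Normal levels, so it favours genes of like direction. Of the other 3 genes, LOC_Os06g48010 was higher in HS in root hair-like nuclei, with 0.912 ± 0.026 in HS and 0.830 ± 0.015 in Normal. LOC_Os12g24310 had 0.324 ± 0.002 in HS and 0.303 ± 0.006 in Normal there, but its region did not pass the adjusted p limit. LOC_Os01g71070 had the region's directions in root hair-like and root cap-like nuclei. Neither of its 2 regions passed the adjusted p limit in root hair-like nuclei, and 1 passed in root cap-like nuclei. In other nuclei LOC_Os01g71070 had 0.551 ± 0.012 in HS and 0.557 ± 0.001 in Normal, a gap within the HS SD. Neither of its regions passed there.

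Over the 153 regions of these genes, the median log2 ratio of HS over Normal was 0.030 in root hair-like, 0.11 in root cap-like and 0.061 in other nuclei, beside -0.004, -0.002 and 0.0008 over all regions tested. By the adjusted p, 55 were higher and 47 lower in root hair-like nuclei (35.9% and 30.7%), where 18.8% and 16.5% of all regions were. In root cap-like nuclei 47 were higher and 27 lower (30.7% and 17.6%), where 10.1% and 9.35% of all regions were. In other nuclei 58 were higher and 32 lower (37.9% and 20.9%), where 24.9% and 23.2% of all regions were. Both directions thus occurred among genes open in root hair-like and root cap-like nuclei. With the 2-fold limit as well, 6 regions (3.92%) were called in root hair-like, 5 (3.27%) in root cap-like and 1 (0.654%) in other nuclei. These shares lie below the 6.90%, 5.29% and 4.92% of all regions. They lie above the 0.944%, 1.24% and 0.113% called in the refit on regions whose called length differed by under 10%. The 153 regions were not matched to all regions for cut sites or called length. Neither the shares by adjusted p nor those with the 2-fold limit therefore show how often such genes respond to heat.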

How the data were processed

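Processed scATAC-seq files of 4 libraries were used (HS and Normal, 2 each, grouped by sample title). The authors made them with Cell Ranger ATAC 1.2.0, per the submitters' processing notes. The deposited values are raw counts of Tn5 cut sites per peak and barcode, not normalised, with all barcodes kept and peaks called per library. The deposited peak lists give chromosome, start and end. The coordinates' build and the settings for peak calling were not given in the sources used here. No genome sequence was used.

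Barcodes were ranked by cut sites and as many taken as nuclei as the study's supplement counts per library (10719 and 10727 in HS, 12708 and 12604 in Normal). They held 93.6% to 93.8% of cut sites. Peaks sharing at least 1 bp were merged, and the regions called in all 4 libraries were tested. The marker lists were the first 100 genes per type of the study's table, without chromosome 8, genes listed under both types and the 3 check genes; the table held here was shortened. A gene's regions overlapped its body or the 2000 bp upstream. Of 100 genes, 96 (root hair) and 97 (root cap) had a region. No doublet caller was run.

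Cut sites were summed per library and group and tested with the quasi-likelihood test of edgeR 4.0.16 in R 4.3.3 (TMM, filterByExpr, Benjamini-Hochberg over all regions), with library as a block in tests between groups of nuclei. The script was tested on simulated data. The study calls the HS libraries 2 independent rounds, and whether the Normal replicates came from separate cultures is not stated, so p-values measure the spread between these libraries, which may be partly technical. Alternatives were DESeq2 1.42.0, other scalings, no filter, thinned sums, each library left out, other limits (2 or 5 MAD), lists (50 or 200 genes) and sets of nuclei. Named genes were the members, the regions within 50 kb, the check genes and the 5 genes most like the region. The members and lists were chosen with earlier results of these data known.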

Additional observations from a re-analysis of the deposited data

Results flagged for a closer look

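The heat effect differed between groups of nuclei at several places of the locus, by the test of the difference itself. At the region it differed by -0.40 on the log2 scale between root hair-like and other nuclei, by -0.23 between root hair-like and root cap-like nuclei and by -0.17 between root cap-like and other nuclei. This last value did not hold (-0.064, adjusted p = 0.474, without Normal replicate 1, and 0.058, adjusted p = 0.466, at 5 MAD, by edgeR). At the second region in the body of LOC_Os08g30780 the difference was 1.98 for root cap-like minus other nuclei, which was 1.18 (adjusted p = 0.210) with thinned sums, and -2.36 for root hair-like minus root cap-like nuclei. At the first region in that gene it was 1.89 (adjusted p = 0.00107, edgeR) for root cap-like minus other nuclei, on 20 to 44 cut sites per library in root cap-like nuclei, and it was lost without HS replicate 2 (adjusted p = 0.030) or Normal replicate 1 (adjusted p = 0.085). At the third region it was -0.52 (adjusted p = 0.00879) for root hair-like minus other nuclei, lost without HS replicate 1 (0.097), HS replicate 2 (0.018) or Normal replicate 1 (0.351). At the neighbour 730 bp before the region it was 0.26 (adjusted p = 0.00572) for root cap-like minus other nuclei, lost without HS replicate 2 (0.262) or Normal replicate 2 (0.095), and -0.38 (adjusted p = 2.82e-05) for root hair-like minus root cap-like nuclei.

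The nuclei past both limits, which were in none of the groups compared and entered the fit over all nuclei only, had the highest level at the region, 3.65 ± 0.004 in HS and 3.36 ± 0.072 in Normal (SD, n = 2 each), above that of root hair-like nuclei. In the HS libraries 63.2% and 64.6% of their cut sites in the region fell in the first peak, between the shares of root hair-like and root cap-like nuclei.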

How the results depend on the processing

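Of 118 alternatives for the heat effects and their differences at the region, 103 kept the direction and the side of the 0.01 limit, 14 lost the limit and 1 turned the direction; the cause was not tested where a value moved. In root hair-like nuclei the log2 ratio was -0.048 with a limit of 2 MAD, -0.097 with 5 MAD and -0.060 without the deepest nuclei, and -0.093 to -0.083 with each library left out. In root cap-like nuclei it was 0.14 without the deepest nuclei and 0.11 to 0.19 with each library left out, and in all nuclei 0.070 with thinned sums, where the limit was lost. The difference of root cap-like minus other nuclei was -0.15 with DESeq2, -0.14 with no filter, -0.13 with thinned sums, -0.14 in nuclei of at least 10000 cut sites, 0.058 at 5 MAD and -0.22 to -0.064 with each library left out.

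The replicate numbers did not pair the libraries (correlations of same-numbered deviations between -0.010 and 0.020), and with a replicate block the log2 ratio was -0.086 in root hair-like, 0.15 in root cap-like, 0.32 in other and 0.11 in all nuclei, with no call changed at the region.

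The ratio of root hair-like to other nuclei was 4.68 in HS and 6.34 in Normal without the deepest nuclei, and 3.70 in HS and 4.82 in Normal at 5 MAD. Root cap-like over other nuclei was 4.14 in HS and 4.83 in Normal without the deepest nuclei, 2.97 in HS and 3.56 in Normal at 2 MAD, 3.46 in HS and 3.40 in Normal at 5 MAD, and in HS 3.88 with 50 genes and 4.03 with nuclei past both limits assigned to the list they exceeded further. Thinned to 5000 cut sites, the shares of nuclei with a cut site were 70.5% in HS and 70.3% in Normal for root hair-like, 63.4% in HS and 61.9% in Normal for root cap-like and 23.4% in HS and 18.9% in Normal for other nuclei. Of the 8 peaks, 2 were shared with all other libraries at 50% of both peaks. The number of called regions moved by over 1.5 times in 13 of 118 alternatives: in the refit on regions whose called length differed by under 10%, it was 209 of 22145 tested in root hair-like (3824 of 55397 over all regions), 273 of 22072 in root cap-like (2840 of 53693), 25 of 22145 in other (2728 of 55494) and 20 of 22145 in all nuclei (2531 of 55496). In that refit the differences gave 101 (505 over all regions) for root hair-like minus other, 141 (479) for root cap-like minus other and 389 (1204) for root hair-like minus root cap-like nuclei. Root hair-like minus other nuclei gave 320 with DESeq2 and 281 with thinned sums, and root cap-like minus other nuclei 305 at 2 MAD and 957 at 5 MAD. In root cap-like nuclei it was 755 without HS replicate 1 and 765 without HS replicate 2. The alternatives with equal called length and with assigned nuclei were chosen after seeing the data.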
